A study of Homo sapiens with 6 samples.

Results

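The replication-dependent histone cluster on the short arm of human chromosome 6 was examined in maps of open chromatin from 22Rv1, an established prostate cancer cell line. Members were chosen by position alone: every deposited peak that overlapped 6:26010000-26290000, 6:27090000-27125000 or 6:27770000-27870000 in hg19 was taken. These windows measure 280, 35 and 100 kb, and are called windows 1, 2 and 3. After peaks of the 6 libraries that overlapped by at least 1 bp were joined, the windows held 50 of the 167726 regions found genome-wide, with 31 in window 1, 5 in window 2 and 14 in window 3. The assay was ATAC-seq, in which a transposase cuts and tags accessible DNA. All 6 libraries came from 22Rv1 cells grown in RPMI 1640 with serum and carried the label FOXA1_dTAG, with 2 libraries each at 0h, 1h and 24h. FOXA1, a forkhead protein, opens chromatin for the androgen receptor in prostate cells, and a protein fused to a dTAG can be sent to the proteasome by adding a degrader compound. Neither the compound nor its dose is in the labels, which also do not say whether the tagged line is 1 clone. FOXA1 itself was not measured here, so the labels were not checked against its level. Nothing in the labels says that replicates were separate cultures, so every p-value below measures only the spread between libraries, which may be technical.

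Histone proteins package DNA. Pairs of H2A, H2B, H3 and H4 form the nucleosome core, and H1 binds the linker DNA. Cells need a large supply of them when DNA is copied, and the genes that meet this need are short, lack introns, and give mRNAs that end in a stem-loop instead of a poly(A) tail. They are transcribed mainly in S phase, from clusters that gather in the nucleus with the coactivator NPAT in histone locus bodies. Many H2A and H2B genes lie head to head and share the DNA between them as a promoter for both directions.

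Because an hg19 annotation was not used here, no peak was tied to a gene, and the promoters of the histone genes are described separately, from RefSeq's promoter table on GRCh38.p14. The table held the 250 bases before the start of 50 of the 55 protein-coding histone genes of chromosome 6: 6 of 6 for H1, 11 of 12 for H2A, 15 of 15 for H2B, 8 of 10 for H3 and 10 of 12 for H4. The genes were chosen by symbol and not by the windows, and include the testis-specific H1-6, H2AC1 and H2BC1. The promoter of 1 gene per family, none of these, is printed below to show the letters that the families share and those that set them apart. The H2A and H2B examples are the opposite sides of 1 shared stretch. Capitals mark, on either strand, CCAAT (bound by NF-Y), TATAAA (the TATA box, marked in H1, H3 and H4), the octamer ATTTGCAT (bound by OCT1, marked in H2A and H2B) and the H1 box AAACACA.
H1-1: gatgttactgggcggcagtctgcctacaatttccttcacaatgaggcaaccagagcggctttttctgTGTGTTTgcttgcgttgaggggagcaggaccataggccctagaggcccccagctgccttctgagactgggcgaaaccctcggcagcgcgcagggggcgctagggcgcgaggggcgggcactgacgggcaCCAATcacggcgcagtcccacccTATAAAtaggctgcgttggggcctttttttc
H2AC6: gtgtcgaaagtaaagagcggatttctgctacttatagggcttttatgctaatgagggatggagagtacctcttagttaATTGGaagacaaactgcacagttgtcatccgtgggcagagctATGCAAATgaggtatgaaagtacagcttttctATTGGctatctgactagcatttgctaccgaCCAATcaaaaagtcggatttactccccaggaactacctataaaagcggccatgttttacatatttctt
H2BC4: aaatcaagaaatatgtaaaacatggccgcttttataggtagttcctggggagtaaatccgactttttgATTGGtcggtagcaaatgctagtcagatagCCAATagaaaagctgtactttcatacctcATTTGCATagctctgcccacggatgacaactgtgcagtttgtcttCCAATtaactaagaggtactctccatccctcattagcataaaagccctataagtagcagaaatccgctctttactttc
H3C1: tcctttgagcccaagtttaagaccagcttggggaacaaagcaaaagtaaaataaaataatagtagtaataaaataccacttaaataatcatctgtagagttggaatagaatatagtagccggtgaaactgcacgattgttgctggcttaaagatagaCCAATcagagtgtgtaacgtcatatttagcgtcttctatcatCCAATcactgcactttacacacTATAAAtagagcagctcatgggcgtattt
H4C2: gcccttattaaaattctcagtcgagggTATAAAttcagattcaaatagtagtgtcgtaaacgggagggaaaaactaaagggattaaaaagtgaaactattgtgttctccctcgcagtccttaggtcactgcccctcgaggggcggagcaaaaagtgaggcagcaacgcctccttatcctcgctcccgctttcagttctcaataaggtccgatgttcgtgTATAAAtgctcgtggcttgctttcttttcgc

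In the linker histone promoter of H1-1, TATAAA began 31 bases before the start, CCAAT 54 and the H1 box 183. The H1 box was in all 6 H1 promoters and in no other histone promoter of the table, against 4.96% of all 27195 promoters of this length. The octamer marked the H2A and H2B genes: 9 of 11 H2A and 12 of 15 H2B promoters held it, as did 1 of 8 H3 promoters, none of the 10 H4 and none of the 6 H1 promoters. Its share was 44% over the 50 histone promoters and 1.66% over all promoters. In H2AC6 it began 130 bases before the start, and in H2BC4, read from the other side, 123.

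The shared promoters were visible in the letters themselves. Among 12 neighbouring pairs of an H2A and an H2B gene, 9 were divergent, and in each of these the upstream stretch of 1 gene held a run of 193 to 247 of its 250 bases that was the reverse complement of the other. For H2BC4 and H2AC6 that run was 245 bases. CCAAT was in every H1, H2A, H2B and H3 promoter of the table but in 3 of 10 H4 promoters, which gave 86% over all histone promoters against 33.0% over all promoters. At least 2 copies were present in 66% of histone promoters and in 9.92% of all. TATAAA was in 66% of them, against 11.1% of all promoters, and in H4C2 it stood at 31 and again at 223 bases before the start. Motifs in a stretch that a divergent pair shares count for both genes, so these shares and that of the octamer count some letters more than once. A TATAAA at the far end of such a stretch can be the partner's. The forkhead core letters TGTTTAC or TGTTTGC, on either strand, were in 3 histone promoters (6%), H1-1, H2AC1 and H2BC6, against 6.04% of all promoters, and the match in H1-1 overlapped its H1 box. These matches describe letters in a window and show no bound factor.

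The 6 lists held 101755 to 125396 peaks, and their relative depth, estimated from the background pileup, ran from 7.04 tags per kb in 24h replicate 2 to 10.4 in 0h replicate 1. Both 24h libraries were shallower than all the others. The shortest peak (in MACS2 usually the estimated fragment length) ran from 111 bp in 0h replicate 2 to 172 bp in 1h replicate 1. Depth and fragment length therefore differed between times and replicates, and their part in the differences below was not tested. The merged region 6:27124934-27126166 spans the end of window 2, and its peak reached into the window in 4 of the 6 libraries.

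The histone cluster was densely and repeatedly open. Of its 50 regions, 42 (84%) had a peak in all 6 libraries, against 43.3% of all regions genome-wide and 65.2% of the 138 regions in the 1445 kb between the windows. Of the others, 3 were found in 5 libraries, and 1 each in 4, in 3 and in 2 libraries. The remaining 2 were found in 1 library, against 22.5% of all regions with a peak in 1 library. Peaks covered 9.41% and 8.29% of the windows in the 0h libraries, 9.57% and 8.90% in those at 1h, and 7.98% and 8.11% in those at 24h. Peaks of the same lists covered 4.63% to 5.74% of the DNA between the windows. Regions stood 12.0 per 100 kb within the windows and 9.55 between them.

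**Figure D1:**
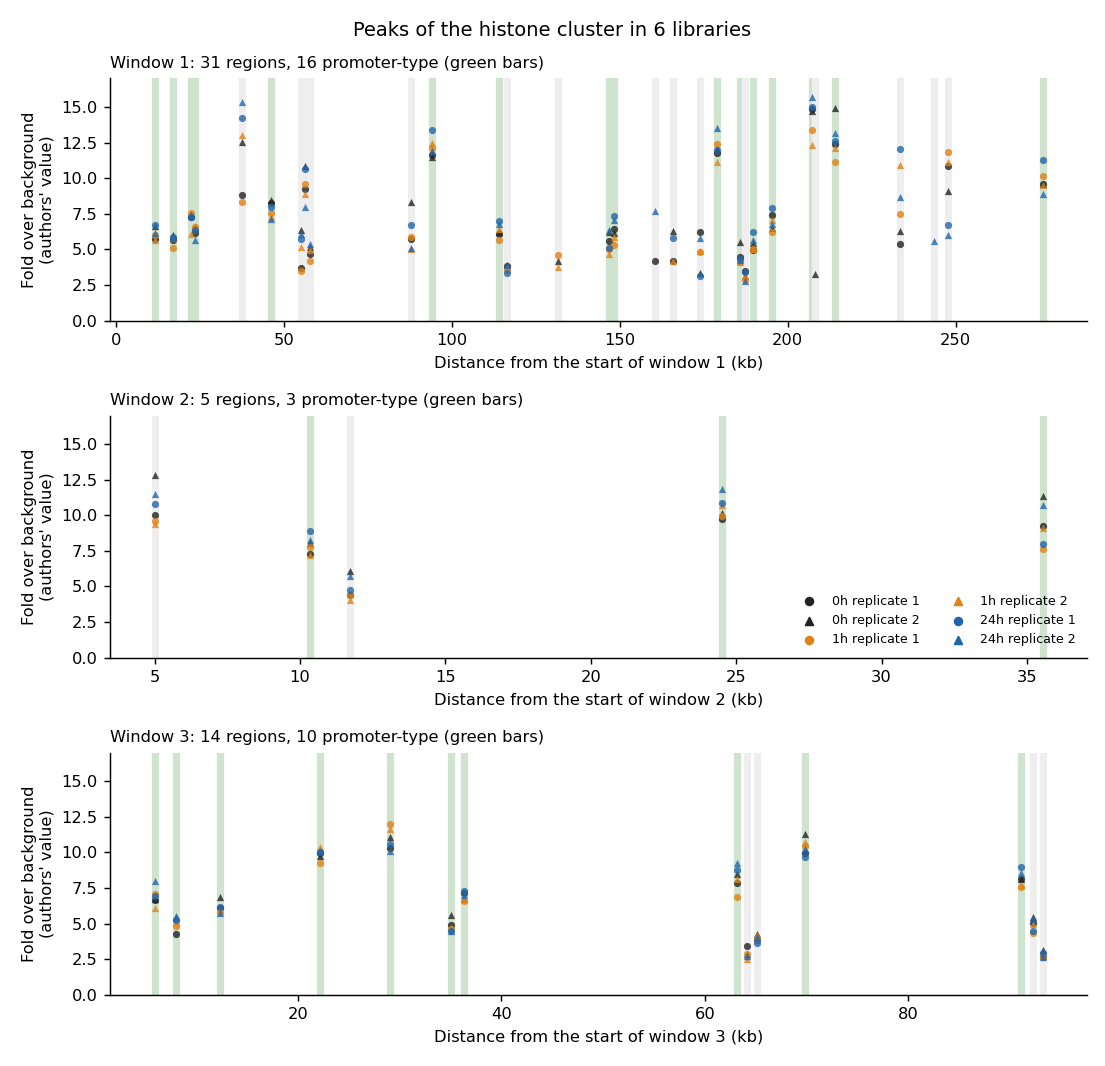
The authors' fold over background (y axis, linear) of every region of the 3 windows against its distance from the start of the window (x axis, kb). Colours give the time and symbols the replicate, green bars mark the 29 promoter-type regions and grey bars the other 21, and the folds of the 6 libraries mostly lie close together within a region.

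Strong, wide regions made up most of the cluster. With no annotation of the files' build, promoter-type is used here for size and strength only: a peak in all 6 libraries with a −log10 q of at least 10 in each, and a median width of at least 481.5 bp, the median over all 72695 regions shared by the 6 libraries. In the cluster 29 regions met this definition, 16 in window 1, 3 in window 2 and 10 in window 3. That was 58% of its regions, against 17.3% genome-wide and 41.3% between the windows. Among regions shared by all libraries the share was 69.0%, against 39.8%. Promoter-type regions stood 6.99 per 100 kb in the cluster and 3.94 between the windows. Neighbouring ones within a window lay 173 to 60615 bp apart, with a median of 5916 bp over 26 gaps, and 3 gaps were under 1 kb.

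The cluster's regions were wide. Where a library split a region into several peaks, their widths were summed. The median width of the 29 promoter-type regions was 1014.5 bp, from 494.5 to 1966 bp, against 805.5 bp for all 28953 promoter-type regions and 985.5 bp for the 57 between the windows. Widths of at least 1 kb were found in 15 of the 29 (51.7%), against 32.6% of all promoter-type regions. More than 1 peak in some library was found in 9 of them (31.0%), against 19.1%. Promoter-type regions between the windows were much like the cluster's in these measures: 45.6% were at least 1 kb wide and 38.6% had more than 1 peak in some library. Width varied little: its coefficient of variation over the 6 libraries had a median of 8.88%, against 10.3% for all promoter-type regions and 8.97% for those between the windows. Summits moved between libraries by a median of 115 bp, against 101 bp. Only 1 of the 29 (3.45%) kept its summit within 50 bp, against 16.3% of all promoter-type regions, so in most of them the highest point differed between libraries by more than that.

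The limits of the class fell within a continuous range. Just inside by width were 6:26195560-26196152 with a median of 494.5 bp and 6:26156399-26156970 with 513 bp. Just outside, among regions that met the limit of strength, were 6:27862040-27862488 with 425 bp and 6:27094749-27095259 with 381.5 bp. Regions that were wide enough but too weak were 6:26126066-26126657, 6:27834684-27835561 and 6:26197018-26197630, with a lowest −log10 q of 9.18, 9.34 and 4.68. The weakest region inside was 6:26033317-26034012, at 13.8.

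**Figure D2:**
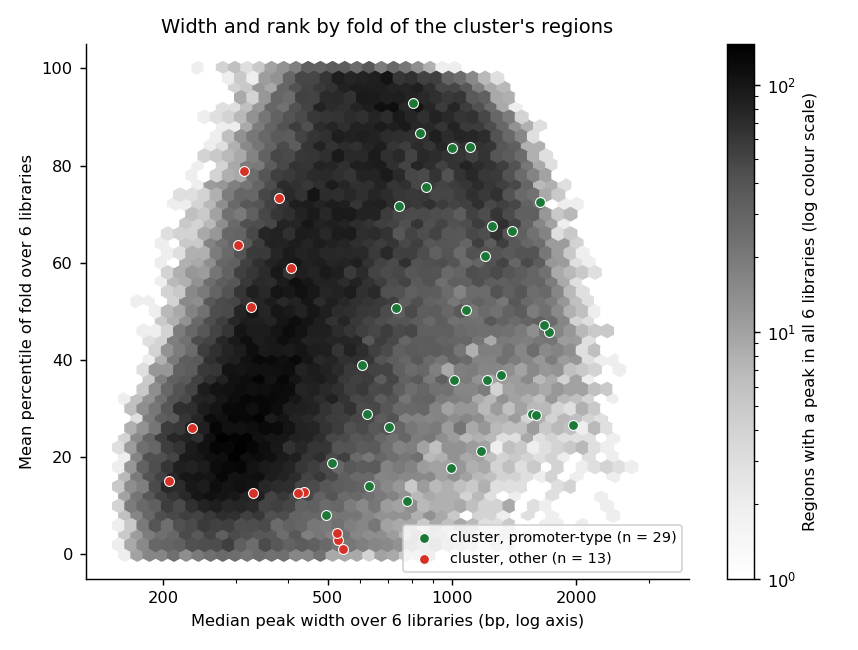
Median peak width over 6 libraries (x axis, bp, log scale) against the mean percentile of fold over 6 libraries (y axis) for the 42 cluster regions found in all libraries, over a grey density of all 72695 shared regions. The 29 promoter-type cluster regions (green) lie at widths of 494.5 to 1966 bp, 17 of them under the 50th percentile of fold, and 13 other cluster regions are red.

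The cluster's wide regions had moderate folds and high pileups. The authors' fold (column 7) is the pileup of tags at the summit over the local background. It was turned into a percentile among the 72695 shared regions, so that every library ranked the same regions. The median promoter-type fold in the cluster was 7.25 and 7.47 in the 0h libraries, 7.09 and 7.03 in those at 1h, and 7.92 and 7.41 in those at 24h. All promoter-type regions together had medians of 10.2 to 11.2, above the cluster's in every library. As a percentile, the mean over the 6 libraries had a median of 39.0 over the 29 regions, against 72.0 over all promoter-type regions and 65.2 over those between the windows. It was under 50 in 17 of the 29 (58.6%), against 18.8% of all promoter-type regions.

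Ranked by the pileup itself, the order was the opposite. The whole-number pileup and the background at each summit can be solved for from the authors' fold and −log10 p. The cluster's promoter-type regions had a median pileup of 84 and 59 tags in the 0h libraries, 81 and 78 in those at 1h, and 64 and 58 in those at 24h. The same medians over all promoter-type regions were 65 and 48, 61 and 61, and 51 and 46, below the cluster in each library. The local background was higher in the cluster as well: its median was 9.64 and 5.78 tags in the 0h libraries, 9.72 and 9.50 in those at 1h, and 7.07 and 6.45 in those at 24h. All promoter-type regions had 5.33 and 3.19, 4.95 and 4.83, and 3.72 and 3.24 tags. By pileup the mean percentile of the 29 regions had a median of 86.1, from 68.9 to 94.3, against 77.9 for all promoter-type regions, and none was under 50. The percentile by pileup was above that by fold in 26 of the 29 (89.7%), against 54.7% of all promoter-type regions. The promoter-type definition itself uses −log10 q, which rises with pileup and falls with local background. Where the background is higher, as in the cluster, a region needs more tags to meet the definition. The same definition therefore sets a higher floor of pileup there, and its part in the percentiles by pileup and by fold was not tested. No test was run over regions, which share libraries.

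**Figure D3:**
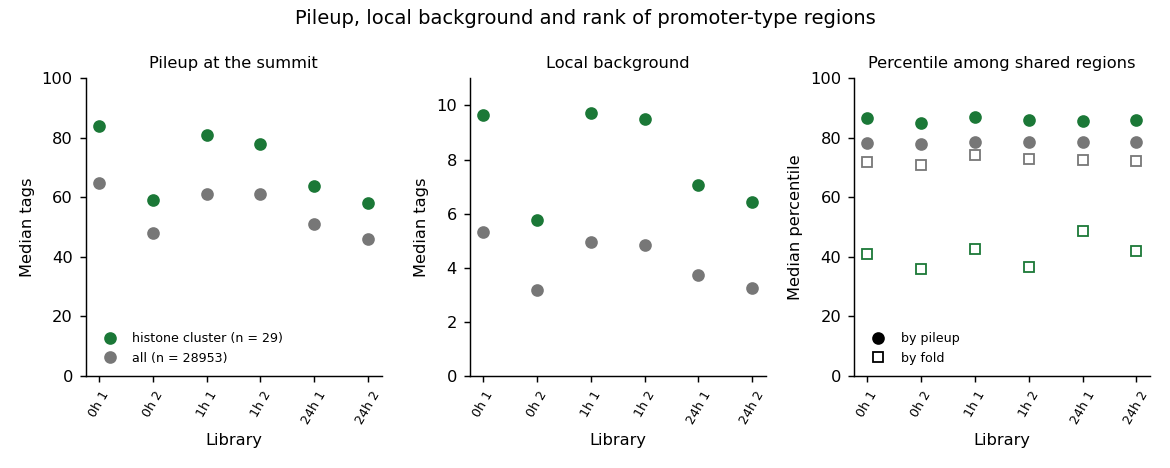
Medians over promoter-type regions of the histone cluster (green, n = 29) and of all promoter-type regions (grey, n = 28953) in each library (x axis): pileup at the summit in tags, local background in tags, and percentile among shared regions by pileup (filled circles) and by fold (open squares). Pileup and background are higher in the cluster in all 6 libraries, while its percentile by fold lies between 36.1 and 48.6 and that by pileup between 85.1 and 87.0.

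In window 1, by mean within-list percentile of fold over the 6 libraries, 3 promoter-type regions came first. Folds are given below as deposited, replicate 1 then replicate 2. In single libraries the narrow region 6:26047179-26047637, described with the shifts, exceeded some of them, with 14.3 and 15.3 at 24h. At 6:26216871-26217751 the fold was 14.8 and 14.7 in the 0h libraries, 13.4 and 12.3 in those at 1h, and 15.0 and 15.7 in those at 24h. Both 1h libraries were lowest, and the 0h and 24h values lay within 1 unit of each other, with widths of 741 to 861 bp. At 6:26223587-26224668 the fold was 12.4 and 14.9, 11.1 and 12.1, and 12.6 and 13.2 by time, so that 0h replicate 2 stood highest and the times overlapped except for the lower 1h pair. At 6:26103537-26104777 it was 11.7 and 11.5, 12.1 and 12.5, and 13.4 and 11.9, with both 1h values above both 0h values and a 24h pair that spanned both 1h values.

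In window 2 a narrow and a wide region led, with mean percentiles of fold of 73.3 and 72.5. At the narrow one, 6:27094749-27095259, with a median width of 381.5 bp and summits within 12 bp in all libraries, the fold was 10.0 and 12.8 in the 0h libraries, 9.57 and 9.41 in those at 1h, and 10.8 and 11.5 in those at 24h. The spread of the 0h pair contained both 24h values. The wide, promoter-type region 6:27113630-27115400 had folds of 9.76 and 10.2, 9.94 and 10.7, and 10.9 and 11.8, the 24h pair being the highest, and was above the narrow region in both 1h and both 24h libraries. By pileup its mean percentile was 89.5, against 76.0 for the narrow region. At 6:27124934-27126166, on the edge of the window, the fold was 9.23 and 11.4, 7.63 and 9.12, and 7.99 and 10.7, with replicate 2 above replicate 1 at each time.

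In window 3 the 3 leading regions were promoter-type and close to each other in fold. At 6:27798544-27799522 the fold was 10.3 and 11.1 in the 0h libraries, 12.0 and 11.6 in those at 1h, and 10.6 and 10.1 in those at 24h, highest at 1h. At 6:27839391-27840324 it was 9.95 and 11.3, 10.4 and 10.7, and 9.67 and 10.2, and the 0h pair spanned all other values but the lower 24h one. The fold of 6:27791525-27792917 was 9.96 and 9.78, 9.22 and 10.4, and 10.0 and 10.1, so the 1h pair alone spanned the other 4 libraries.

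The widest regions combined high pileup with a mean percentile of fold under 50. At 6:26020510-26022556 the width was 2040 and 1750 bp in the 0h libraries, 1992 and 1940 bp in those at 1h, and 1670 and 2029 bp in those at 24h, and its fold lay between 5.68 and 6.72. Its summit shifted by up to 1152 bp between libraries, the largest shift in the cluster, and it averaged the percentile 26.7 by fold and 89.5 by pileup. At 6:26055192-26057193 the widths were 1631 to 1974 bp and the fold was 7.10 to 8.44. At 6:27099338-27101343 the widths were 1446 to 2003 bp, the fold was 7.18 to 8.89, and the pileup was 110 and 76 tags in the 0h libraries, 114 and 100 in those at 1h, and 91 and 79 in those at 24h. That region had the highest mean percentile by pileup of the cluster, 94.3, and a percentile of 47.2 by fold.

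The 13 shared regions outside the class were narrower and more mixed. Their median width was 337 to 440 bp over the libraries, and their median percentile of fold was 12.7 to 23.2. Some were sharp and well enriched, such as 6:26066198-26066540 with folds of 9.24 and 10.8 in the 0h libraries, 9.56 and 8.90 in those at 1h, and 10.7 and 7.97 in those at 24h. Others had many tags on a high background. At 6:26126066-26126657 the pileup was 62 and 40 tags in the 0h libraries, 58 and 62 in those at 1h, and 41 and 41 in those at 24h, while the fold was 3.36 to 3.89. These 2 regions were picked out after their values were seen. The 8 regions missing from at least 1 library had median widths of 142 to 343 bp, and could not be promoter-type by definition.

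The study's labels set 1h and 24h against 0h. No region of the cluster was lost or gained against 0h when a loss meant that both 0h libraries had a peak and no later one did. At 1h, 0 of 46 regions were lost, which allows a share of up to 6.52%, against 7.48% of regions genome-wide, and 0 of 45 were gained, which allows up to 6.67%, against 3.93%. At 24h, 0 of 46 were lost (up to 6.52%) against 13.1%, and 0 of 43 were gained (up to 6.98%) against 6.54%. These limits cover counting error only. Strong 0h regions, with −log10 q of at least 10 in both 0h libraries, also had no loss: 0 of 37 at 1h (up to 8.11%) against 1.51%, and 0 of 37 at 24h (up to 8.11%) against 4.02%. At 24h against 1h, 1 of 45 was lost against 6.42%, and 0 of 43 were gained (up to 6.98%) against 3.85%. The region lost was the weak peak 6:26141538-26141945, present in 0h replicate 2 and both 1h libraries with folds of 4.18, 4.58 and 3.78. With 1 library of a pair left out, which makes a loss easier to call, 0 to 2 regions were lost at 24h. Requiring a −log10 q of at least 5 gave 1, 6:27863002-27863503.

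The number of cluster peaks barely moved. It was 50 and 56 in the 0h libraries, 46 and 51 in those at 1h, and 49 and 53 in those at 24h, or 53 ± 4.24 (SD, n = 2), 48.5 ± 3.54 and 51 ± 2.83. The libraries of the 3 times overlapped (exact two-sided permutation test of 1h and of 24h against 0h, p = 0.667 for each). The difference at 24h changed sign, to 1 peak more, without 0h replicate 2. With 2 libraries a side the exact test cannot go below p = 0.333. The covered length was 36.7 ± 3.27 kb at 0h (SD, n = 2), 38.3 ± 1.96 kb at 1h and 33.4 ± 0.372 kb at 24h. The 0h and 1h libraries overlapped (exact p = 0.667), whereas both 24h libraries covered less than any other, at the smallest p the exact test allows (0.333 against 0h). Between the windows the order was the same, with 4.63% and 4.95% covered at 24h and 5.00% to 5.74% in the other 4 libraries.

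Peaks were narrower at 24h about as often in the cluster as elsewhere. The promoter-type median width was 1079 and 998 bp in the 0h libraries, 1061 and 1096 bp in those at 1h, and 985 and 940 bp in those at 24h. Both 24h medians lay below the other 4, by 76 bp on average against 0h (exact permutation p = 0.333, n = 2 a side). Of the 42 shared regions, 13 were narrower in both 24h libraries than in both 0h libraries (31.0%, against 26.9% of all shared regions), and 1 was wider (2.38%, against 12% of all). At 1h, 3 were narrower (7.14%, against 7.5%) and 12 wider (28.6%, against 30.2%). These shares at 1h and the narrower share at 24h were near the background. By the cluster's promoter-type medians, the shallower 24h libraries had the narrower peaks. Over all peaks of a list, however, 0h replicate 2 had the lowest median width, 281 bp, against 341 and 327 bp at 24h. The part of depth and fragment length in these widths was not tested.

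The deposited folds of a region lay close together over the 6 libraries, without correction for their depth. For the 29 promoter-type regions the highest of the 6 folds was 1.11 to 1.49 times the lowest, with a median of 1.24, against 1.29 for all promoter-type regions. None exceeded 1.5 times, against 15.1% of all promoter-type regions. Median pileup and background were higher in the cluster in every library, and their part in this span was not tested. Ranks moved about as much as elsewhere: the median absolute shift in percentile at 24h was 6.06 points for these 29 regions, against 5.50 for all promoter-type regions. The cluster's regions started from lower percentiles, where a point need not stand for the same change of fold. Among the 13 other regions the span of fold reached 2.25 times, and 7 exceeded 1.5 times, against 64.8% of such regions genome-wide.

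A region was called shifted when both later percentiles of fold lay beyond both 0h percentiles. At 1h, 8 of the 42 shared regions ranked lower (19.0%, against 20.5% of all shared regions) and 7 ranked higher (16.7%, against 22.5%). At 24h, 6 ranked lower (14.3%, against 22.1%) and 15 ranked higher (35.7%, against 25.9%). Most regions that ranked higher at 24h were promoter-type: 13 of the 29 ranked higher (44.8%, against 28.4% of all promoter-type regions) and 4 lower (13.8%, against 15.8%). The median promoter-type shift at 24h was 5.76 percentile points, against 1.53 for all promoter-type regions, and at 1h it was −0.0626, against 1.21. These sets stood at different places on the scale, with median percentiles of 39.0 in the cluster and 72.0 over all promoter-type regions. Equal changes of fold therefore need not give equal shifts in the compared sets. The cluster's median promoter-type percentile was 38.5 ± 3.45 at 0h (SD, n = 2), 39.6 ± 4.12 at 1h and 45.3 ± 4.72 at 24h. The 24h pair, at 48.6 and 41.9, lay above the 0h pair, at 40.9 and 36.1, by little more than the spread within a pair (exact permutation p = 0.333, the smallest possible).

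By −log10 q or by pileup, the share ranked higher at 24h was not above that of all shared regions. By −log10 q, higher ranks still outnumbered lower ones. Ranked by −log10 q, 10 of the 42 ranked higher at 24h (23.8%, against 24.5% of all shared regions) and 3 lower (7.14%, against 23.5%). Ranked by pileup, a setting added after the data were seen, 7 of the 42 ranked higher at 24h (16.7%, against 25.1% of all shared regions) and 6 lower (14.3%, against 24.5%). At 1h by pileup, 11 ranked higher (26.2%, against 24.5%) and 4 lower (9.52%, against 21%). The cluster's local background, 9.64 and 5.78 tags at 0h and 7.07 and 6.45 at 24h, overlapped between these times, and its part in the ranks by fold was not tested. Moves in opposite directions were few: 2 of 42 ranked higher at 1h and lower at 24h than at 0h (4.76%, against 1.32%), and 0 of 42 the reverse (up to 7.14%, against 1.45%).

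**Figure D4:**
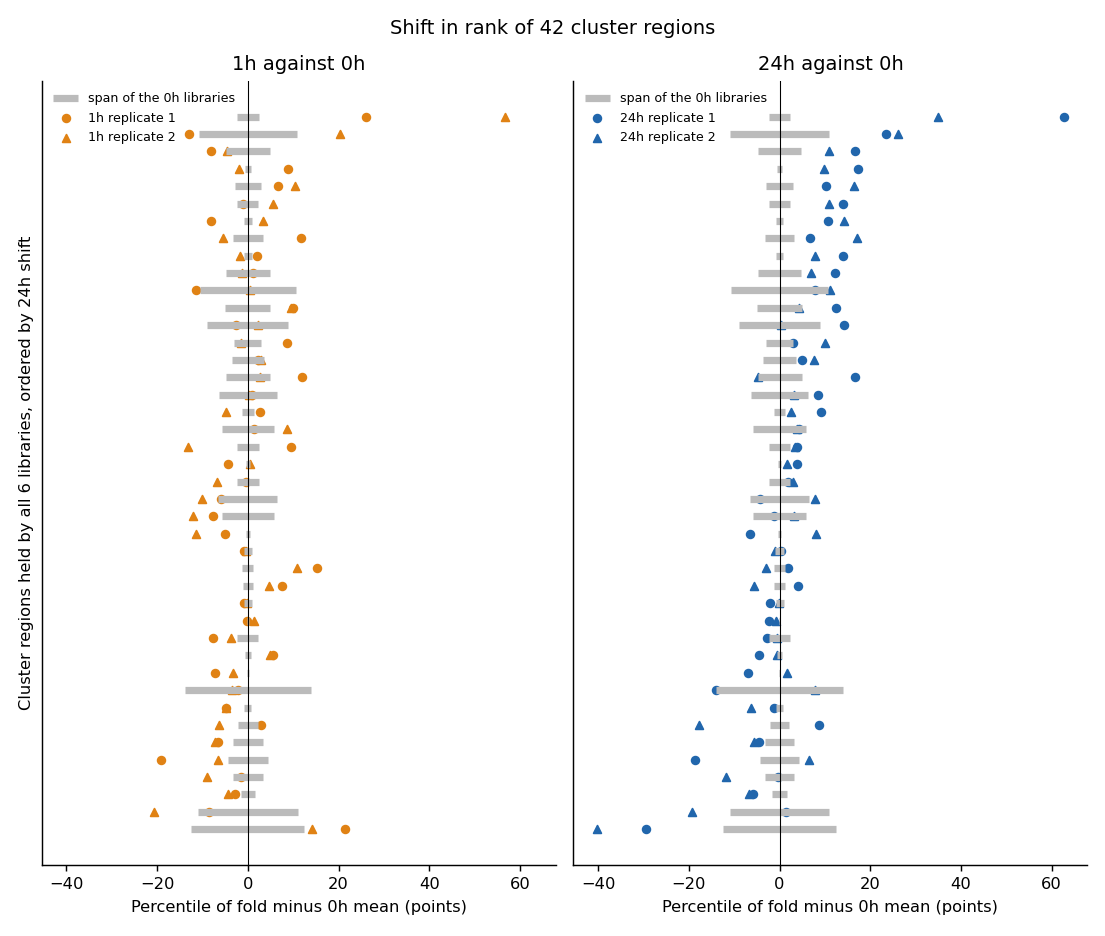
Percentile of fold in each 1h (left) and 24h (right) library minus the mean of the 0h libraries (x axis, percentile points) for the 42 shared cluster regions, ordered by the 24h shift (y axis). Grey bars span the 0h libraries; 15 regions have both 24h libraries above the 0h span against 6 below it.

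The largest shifts were in narrow regions with few tags. At 6:26257400-26257958, with a median width of 407.5 bp, the fold was 10.8 and 9.10 in the 0h libraries, 11.8 and 11.1 in those at 1h, and 6.74 and 5.98 in those at 24h. Its percentile shifted by 17.7 points at 1h and by −34.8 points at 24h. The pileup was 32 and 19 tags in the 0h libraries, 31 and 30 in those at 1h, and 13 and 11 in those at 24h. All 4 earlier libraries stood above both 24h libraries, which also had the lowest relative depth. The most common background pileup, though, was lower in 0h replicate 2 (0.915 tags) than in the 24h libraries (1.08 and 0.958). The part of depth in these pileups was not tested. The 95% Poisson intervals of 0h replicate 2 (11.4 to 29.7) and 24h replicate 1 (6.92 to 22.2) overlapped, and those of 0h replicate 1 (21.9 to 45.2) and 24h replicate 2 (5.49 to 19.7) did not.

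The opposite course was seen at 6:26243306-26243761, with a median width of 326.5 bp. Its fold was 5.35 and 6.27 in the 0h libraries, 7.50 and 10.9 in those at 1h, and 12.0 and 8.68 in those at 24h, and every later library was above both 0h libraries. The percentile was 41.4 points higher at 1h and 48.8 points higher at 24h, on pileups of 13 and 11, 17 and 25, and 24 and 16 tags. The interval of the first 0h pileup (6.92 to 22.2) overlapped that of the first 24h pileup (15.4 to 35.7). At 6:26047179-26047637, with a median width of 314 bp, the fold was 8.78 and 12.5, 8.33 and 13.0, and 14.3 and 15.3. Its 24h pair was highest, by 24.9 points on average against 0h, while the 0h and 1h pairs overlapped.

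The shifts of promoter-type regions were smaller. The largest upward shift at 24h was at 6:26157288-26159337, where the fold was 6.44 and 6.15 in the 0h libraries, 5.27 and 5.85 in those at 1h, and 7.37 and 7.03 in those at 24h, a shift of 13.8 points. By pileup that shift was 2.33 points. Without overlap between 0h and 24h, the largest downward shifts were −6.33 points at 6:27804594-27805453 and −5.09 points at 6:26195560-26196152. At the first the folds were 4.88 and 5.61, 4.63 and 4.66, and 4.50 and 4.46. At the second they were 4.47 and 5.52, 4.08 and 4.10, and 4.34 and 4.27. In both, the 1h pair also lay below the 0h pair, and 0h replicate 2 was the highest library. Shifts of −6.10 points at 6:26055192-26057193 and −6.06 points at 6:27124934-27126166 came with overlapping percentiles.

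**Figure D5:**
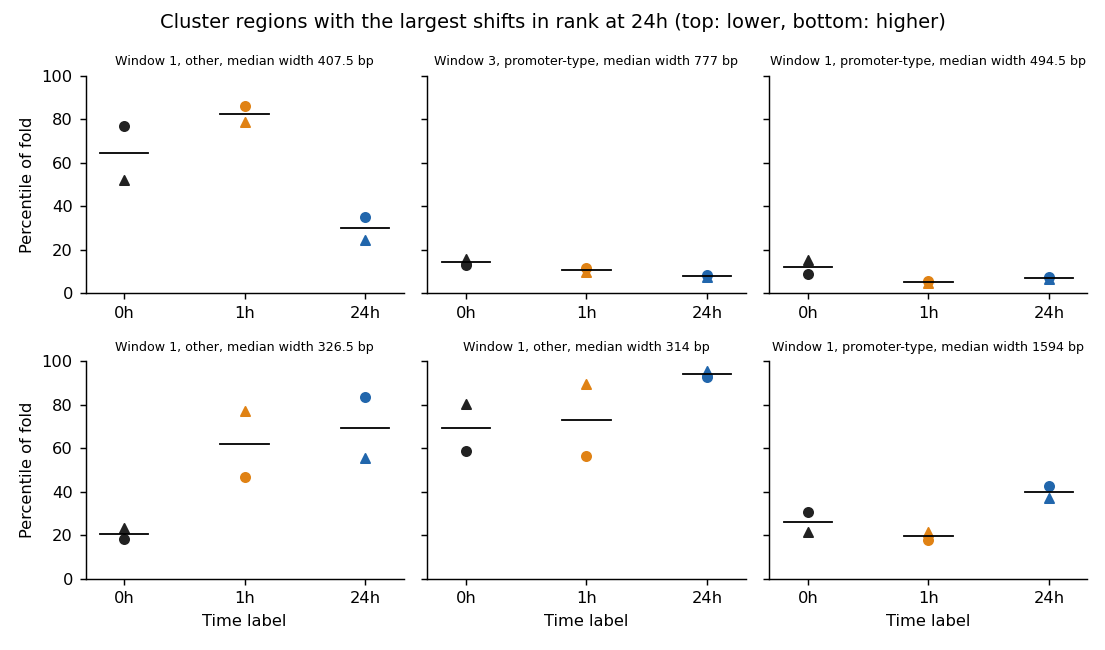
Percentile of fold among shared regions (y axis) at each time label (x axis) in the 6 cluster regions with the largest non-overlapping shifts at 24h in each direction, lower above and higher below. Circles are replicate 1, triangles replicate 2 and lines the mean. The first panel of the top row goes from 77.1 and 52.2 at 0h to 35.3 and 24.4 at 24h, and the first of the bottom row from 18.4 and 23.2 to 83.5 and 55.6, while the largest promoter-type shift is 13.8 points.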

How the data were processed

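ATAC-seq peak lists of 6 libraries of 22Rv1 cells (0h, 1h and 24h, 2 each) were used, 1 list per library, not pooled. FastQC, fastp, Bowtie2 and MACS2 with hg19 were named per the submitters' processing notes; versions, parameters, duplicate removal and transposase shifting are not given in the sources used here. Per the deposited files' layout, each peak has the authors' score (10 times −log10 q), the authors' fold (a ratio of pileup to local background), the authors' −log10 p and −log10 q, and a summit. The lowest deposited −log10 q was 1.30 to 1.32, which corresponds to a q threshold of 0.05.

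Peaks on the 22 autosomes and X were joined at an overlap of 1 bp. In each library a region's width is the summed width of its peaks, its fold and −log10 q are the highest among them, and its pileup, background and summit are those of the peak with the highest fold. Lost regions had a peak in the pair of libraries at the earlier time and none in the later pair, and gained regions the reverse. The pileup was recovered from fold and −log10 p with MACS2's formulas (pseudocount 1, Poisson) and matched within 0.001 for 100% of peaks; exact 95% Poisson intervals cover counting error only. Shifts in rank used percentiles of fold among regions shared by all 6 libraries; deposited folds of single regions are also given side by side, without correction for depth. Group means were compared by exact two-sided permutation tests. The scripts (python 3.11.15, numpy 2.4.6, pandas 2.3.3, scipy 1.17.1) were tested on simulated data. The members, definitions and lists were chosen with earlier results of these data known. The text names the 3 highest regions by mean within-list percentile of fold in each window, the 3 widest, up to 5 lost or gained of each comparison, and the 3 largest non-overlapping percentile shifts at 24h in each direction. Alternatives were a stricter q, lists of one length, 500 bp summit windows, membership by summit, ranking by −log10 q or pileup, a wider width limit and leaving out each library. The promoter table's first start per gene was used, on 27195 promoters.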

Additional observations from a re-analysis of the deposited data

Results flagged for a closer look

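At 6:26257400-26257958 both libraries of each later time moved against 0h, but in opposite directions: the percentile of fold was 17.7 points higher at 1h and changed by −34.8 points at 24h. At 6:27839391-27840324, a promoter-type region of window 3, the same course was seen on a smaller scale, with 5.29 points at 1h and −2.57 points at 24h. Both contrasts share the 0h libraries, and the difference between the 2 times was not tested.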

How the results depend on the processing

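With 2 libraries a time, many counts changed with the setting or with 1 library left out. The 24h difference in cluster peaks, −2, became 0.5 with a −log10 q of at least 5 and 2 with lists of one length, and ran from −5 to 1 with each library left out. The covered length at 1h against 0h, 1.60 kb more, ran from −0.711 to 3.91 kb, below 0 only without 0h replicate 2. Lost regions at 1h became 1 with 500 bp summit windows and 1 with any library left out. Lost regions at 24h became 1 with the stricter q and ran from 0 to 2 with a library left out; gained regions against 0h ran from 0 to 1 at each time. Gained regions at 24h against 1h became 1 with 500 bp summit windows, 1 without 1h replicate 1 and 2 without 24h replicate 1. Lost regions at 24h against 1h became 0 with the stricter q or lists of one length and 3 without 24h replicate 2. A width of at least 1000 bp left 15 promoter-type regions. Ranking by −log10 q gave 3 lower and 11 higher at 1h, and 3 lower and 10 higher at 24h; ranking by pileup, added after the data were seen, gave 4 lower and 11 higher at 1h, and 7 higher at 24h. Lists of one length gave 2 lower at 24h. With a library left out, 13 to 18 ranked lower and 8 to 16 higher at 1h, and 10 to 12 lower and 18 to 22 higher at 24h. Leaving out a library makes the rules for losses, gains and shifts easier to meet for any region. The shares over all regions were not computed at that setting. The causes were not tested. The 24h shifts of the 6 named regions kept their sign in all alternatives run. Leaving out a library could hardly change it, because the regions were chosen for 24h percentiles that both lay beyond both 0h percentiles.

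The labels do not say what a replicate number stands for, and deviations of same-numbered libraries correlated at 0.0423, 0.0417 and 0.0146. Paired by number (replicate block), the differences were −4.5 and −2 peaks and 1.60 and −3.34 kb at 1h and 24h, the same as unpaired, with an exact sign-flip p = 0.5 for each, the smallest that 2 pairs allow.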
